A study of Rattus norvegicus with 6 samples.

Results

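The genes described here were 10 genes of striated muscle, namely Mybpc1, Myh1, Myh2, Myom2, Tnnt3, Tnnc2, Tnni2, Ckm, Scn4b and Pvalb, read by 11 probes of an oligonucleotide array that carried 30367 probes for 15168 named genes. They were chosen by name, after the strain difference of several of them had been seen in these same arrays, so their differences between the strains are given as a description and without a test. Not every one of them is part of the sarcomere, since Ckm, Scn4b and Pvalb encode a metabolic enzyme, a channel subunit and a calcium buffer of muscle fibres. Colon RNA came from 3 males of the S.LEW congenic strain (C1 to C3) and 3 males of the S strain (S1 to S3), with 1 single-color array per rat. S is the inbred, hypertensive Dahl salt-sensitive strain (SS/Jr), and the congenic strain, S.LEW(10)x12x2x3x5, has a short segment of chromosome 10 from the normotensive Lewis rat on the S background. All 6 rats were fed a low salt diet (0.3% NaCl), were given the colon carcinogen azoxymethane (AOM) in 2 weekly injections of 15 mg/kg from 6 weeks of age, and were killed at 30 weeks. No rat without AOM is among the samples analysed here, and whether the colon RNA came from tumor tissue is not given in the sources used here.

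The sarcomere is the contractile unit of skeletal and cardiac muscle. Its thick filaments are built of myosin, with the heavy chain encoded by a different gene in each fiber type, and are decorated by myosin binding protein C and cross-linked at the M-band by myomesins. Its thin filaments carry the troponin complex, in which troponin C binds calcium, troponin I inhibits contraction and troponin T holds the complex on tropomyosin. The muscle coat of the colon is smooth muscle, which has no sarcomeres and no troponin-based switch, and skeletal muscle is found next to the bowel at the anal sphincter and the pelvic floor.

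In the RefSeq annotation of the GRCr8 assembly, Myh2 and Myh1 were neighbors on chromosome 10, in a row of genes that read Myh3, Myh2, Myh1, Myh4, Myh8 and Myh13. The gene Rffl, which lies in the congenic segment, was on the same chromosome with 365 protein-coding genes between it and Myh1. Mybpc1 and Pvalb were on chromosome 7, Ckm, Tnni2 and Tnnt3 on chromosome 1, Tnnc2 on chromosome 3, Scn4b on chromosome 8 and Myom2 on chromosome 16. The promoter sequences of Mybpc1 and Myh1 are shown because, among the 10 genes, each had the profile over the arrays most like that of the other, and that of Myh2 because it is the neighbor of Myh1 with another pattern. Each is the stretch of 250 bases before the annotated start, 5′ to 3′ on the strand of the gene, with matches to the E-box letters CANNTG, the motif of the MyoD family of muscle factors, in capitals. They lie at chr7:24903374-24903623 (minus strand), chr10:52384662-52384911 (plus strand) and chr10:52355489-52355738 (plus strand).
Mybpc1: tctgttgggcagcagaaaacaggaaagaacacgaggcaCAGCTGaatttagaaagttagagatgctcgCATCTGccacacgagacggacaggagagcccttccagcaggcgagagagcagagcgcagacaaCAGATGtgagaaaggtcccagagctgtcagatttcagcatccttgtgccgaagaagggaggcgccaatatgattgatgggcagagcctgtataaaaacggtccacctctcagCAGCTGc
Myh1: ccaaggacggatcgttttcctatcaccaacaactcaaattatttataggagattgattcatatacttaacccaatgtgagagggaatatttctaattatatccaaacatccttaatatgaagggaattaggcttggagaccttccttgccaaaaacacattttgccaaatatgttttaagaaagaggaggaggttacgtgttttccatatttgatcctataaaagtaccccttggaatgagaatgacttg
Myh2: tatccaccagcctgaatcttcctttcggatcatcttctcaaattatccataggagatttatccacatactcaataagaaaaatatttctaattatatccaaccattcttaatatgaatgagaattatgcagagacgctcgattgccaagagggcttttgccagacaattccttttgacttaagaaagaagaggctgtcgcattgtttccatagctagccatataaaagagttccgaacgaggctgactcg
With the 50 bases after the start added, and both strands searched, the Mybpc1 window held 4 E-box matches and those of Myh1 and Myh2 held 0, where 72.1% of the 33469 promoters of the same length in the annotation table held at least 1. The Myh1 and Myh2 windows were identical at 67.8% of 270 aligned positions, against 48.2% of 303 for Myh1 and Mybpc1.

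Signals are given as log2 of the background-corrected intensity after quantile normalization, a step that gives the 6 arrays the same distribution. The median intensity before that step was between 214 and 594 on the 6 arrays. From 73.8% to 80.9% of the spots were well above background on the congenic arrays, and from 83.2% to 87.6% on the S arrays. The lowest signal well above background was 4.40 to 5.63 on the congenic arrays and 3.41 to 4.13 on the S arrays. The same signal could therefore be well above background on an S array and not on a congenic one. A probe was tested where it was well above background on at least 3 arrays, which held for 23974 probes and for 10 of the 11 probes of the 10 genes. Among all tested probes, limma, which moderates each variance by that of all probes, called 775 higher (3.23%) and 563 lower (2.35%) in the congenic strain where the unadjusted p was under 0.05 and the means lay 2-fold apart, 5.58% together (692 and 760 after scaling to the 75th percentile instead), and 0 at a Benjamini-Hochberg adjusted p under 0.05, with 3108 probes at an unadjusted p under 0.05. The methods' t-test also gave 0 after adjustment. The S arrays were unlike one another. The array of S2 correlated at 0.900 with S1 and 0.936 with S3 across probes, and at 0.967 to 0.976 with the 3 congenic arrays, so differences are given with and without S2 where it decides them. Slides were told apart by the recorded scan date, which C1 shared with the 3 S rats, while C2 and C3 shared another. With this slide as a block, the difference of a probe is that of C1 from the mean of the 3 S rats. Such a difference, and a call kept or lost with it, rests on C1 alone among the congenic rats. With so few arrays the precision of each value is limited, and the p-values measure the spread between 3 rats of each strain.

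At 5 of the 10 genes the 3 congenic rats and the 3 S rats did not overlap, where this was the case for 17.7% of all tested probes. Mybpc1, Myh1, Scn4b and Tnnt3 were higher in every S rat (5.29% of all probes were), and Myom2 was higher in every congenic rat (12.4%). The strain means lay at least 2-fold apart at 6 of the 10 tested probes, as they did at 9.94% of all probes. Since these genes were picked with such differences in view, nothing is read from these shares. The median difference of the 10 probes was -0.99 on the log2 scale, and that of all tested probes was 0.01. In a whole colon sample, fewer cells of a type and less RNA in each cell cannot be told apart.

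**Figure D1:**
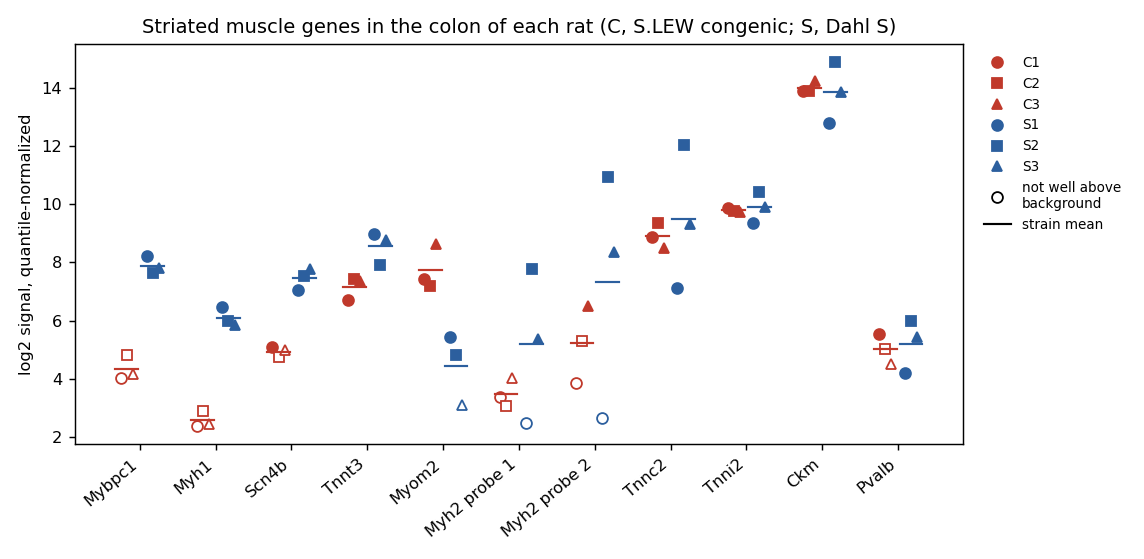
Log2 quantile-normalized signal (vertical axis) of the 11 probes of the 10 genes (horizontal axis) on each of the 6 arrays, in red for the S.LEW congenic rats and blue for the S rats, with the strain mean as a bar and open symbols for signals not well above background. The strains stand apart for Mybpc1, Myh1, Scn4b, Tnnt3 and Myom2, and the S rats spread widely for Myh2, Tnnc2 and Ckm. Levels of different probes cannot be set against each other.

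Mybpc1 encodes slow-type myosin binding protein C, an accessory protein of the thick filament in skeletal muscle. Its signal was 8.23 (S1), 7.63 (S2) and 7.80 (S3), and 4.02 (C1), 4.81 (C2) and 4.16 (C3). All 3 S arrays measured it above background and no congenic array did, which leaves a bound on the fold, at least 7.29-fold below S in congenic rats. The measured means were 7.88 ± 0.31 (SD, n = 3) in S and 4.33 ± 0.42 (SD, n = 3) in the congenic strain, a difference of -3.56 in which the congenic mean is of signals near background. Myh1 encodes the myosin heavy chain of fast type 2X fibers. It read 6.46 (S1), 5.99 (S2) and 5.87 (S3), and 2.39 (C1), 2.90 (C2) and 2.46 (C3), none of the latter well above background. The bound for Myh1 was a level at least 2.13-fold lower than in S, and the measured means, 6.11 ± 0.31 (SD, n = 3) in S and 2.58 ± 0.28 (SD, n = 3) in the congenic strain, differed by -3.52. For both genes S1 was the highest of the S rats, which lay within 0.60 (Mybpc1) and 0.59 (Myh1) of each other. Leaving out each rat in turn gave differences from -3.80 to -3.38 for Mybpc1 and from -3.68 to -3.34 for Myh1, and with the slide as a block they were -3.87 and -3.71. With a background correction that adds an offset and so draws dim signals together (normexp), they were -1.39 and -0.69. As folds, both lie below the bounds, which come from signals without this correction. With a rat left out, the bound for Mybpc1 ran from 5.88 (without C1) to 9.03 (without C2). That for Myh1 ran from 1.72 (without C1) to 2.63 (without C2).

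Myh2 encodes the heavy chain of fast type 2A fibers and was read by 2 probes, both with overlapping strains. The tested probe read 2.67 (S1), 10.94 (S2) and 8.36 (S3), a range of 8.27 within one strain, and 3.87 (C1), 5.31 (C2) and 6.50 (C3). The other probe read 2.49 (S1), 7.76 (S2) and 5.36 (S3), and stayed near background in the congenic rats, where it read 3.36 (C1), 3.07 (C2) and 4.02 (C3). Since only 2 of 3 S arrays read it well above background, no bound on the fold is given. On both probes S2 was the highest of all rats and S1 was not well above background, whereas Myh1, the neighbor in the genome, was well above it in S1. Of the congenic rats C3 alone was well above background, on the tested probe. The difference of the tested probe was -2.09 with all rats, -4.42 without S1, -0.28 without S2 and -3.45 with the slide as a block.

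The plot of the myosin heavy chains sets these values beside the rest of the family. Myh8, the perinatal heavy chain and a gene of the same row on chromosome 10, read 5.56 (S1), 10.25 (S2) and 7.81 (S3), and 3.70 (C1), 2.61 (C2) and 5.98 (C3). As for Myh2, S2 was highest and S1 lowest of the S rats, and C3 alone of the congenic rats was well above background. Myh4, the heavy chain of type 2B fibers, stayed below that level on all 6 arrays. The embryonic heavy chain Myh3 was read by 2 probes that differed, one at -0.32 and the other, well above background on 3 arrays, at -0.99. The heavy chain genes are close in sequence, and whether any of these probes also bound the RNA of a neighbor was not tested.

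**Figure D2:**
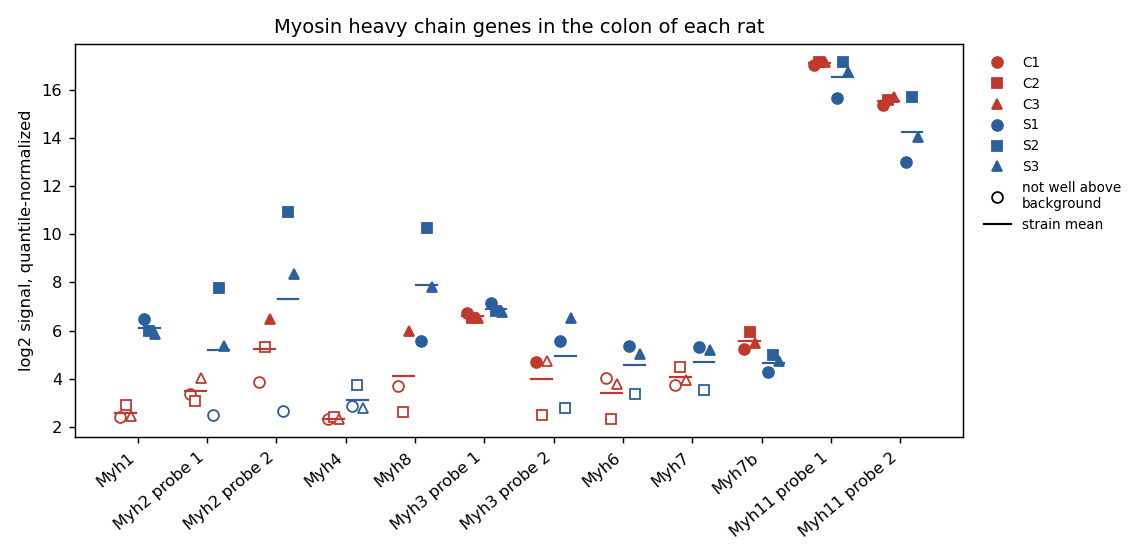
Log2 quantile-normalized signal (vertical axis) of the probes of the striated myosin heavy chain genes and of the smooth muscle gene Myh11 (horizontal axis) on each array, in red for S.LEW congenic and blue for S rats, with strain means as bars and open symbols for signals not well above background. Myh1 is even within each strain and separates them, while Myh2 and Myh8 run from a low S1 to a high S2.

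Myom2 encodes a myomesin of the M-band, which links thick filaments in fast fibers and in the heart. It ran the other way from Mybpc1 and Myh1. The signal was 7.43 (C1), 7.19 (C2) and 8.64 (C3), and 5.43 (S1), 4.84 (S2) and 3.09 (S3), where S3 was not well above background. The means were 7.75 ± 0.78 (SD, n = 3) in the congenic strain and 4.45 ± 1.22 (SD, n = 3) in S, a difference of 3.30 (9.85-fold). The lowest congenic rat was 1.76 above the highest S rat, which is less than the range of 2.34 among the S rats. The difference was 2.62 without S3, 3.79 without S1 and 2.97 with the slide as a block, and 1.33 with normexp. The family member Myom1, which is present in all striated fibers, was not among the 10 genes and was also called higher in the congenic strain, by 1.42 ± 0.49 (SE, limma, adjusted p = 0.348). Its values were 9.28 (C1), 9.26 (C2) and 9.59 (C3) against 7.05 (S1), 9.03 (S2) and 7.80 (S3), so that S2 nearly reached the congenic rats for Myom1 but not for Myom2. The call for Myom1 was lost when C1, C2, C3, S1 or S3 was left out (differences from 0.96 to 1.47) and kept without S2 (1.95), and it was lost with the slide as a block (1.32).

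The 3 fast troponin genes did not share a pattern. Tnnt3, fast troponin T, read 8.98 (S1), 7.93 (S2) and 8.77 (S3) against 6.70 (C1), 7.45 (C2) and 7.35 (C3). It was well above background on all 6 arrays, and its means of 7.17 ± 0.40 (SD, n = 3) in the congenic strain and 8.56 ± 0.56 (SD, n = 3) in S differed by -1.39, or 2.62-fold. S2 was only 0.48 above the nearest congenic rat, and without S2 the difference was -1.71. Tnnc2, fast troponin C, read 7.12 (S1), 12.02 (S2) and 9.33 (S3) and stood between 8.50 (C3) and 9.34 (C2) in the congenic strain. The congenic rats lay within the range of the S rats, and the difference of -0.59 turned to 0.68 without S2 and was -1.77 without S1. Tnni2, fast troponin I, hardly varied in the congenic strain, from 9.74 to 9.86, and read 9.36 (S1), 10.41 (S2) and 9.90 (S3). Its difference was -0.10 and became 0.16 without S2. Tnnt3 and Tnni2 lay on the same chromosome with 5 protein-coding genes between them.

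Ckm encodes the muscle creatine kinase, which buffers ATP in the fiber. It was well above background on every array, with 12.79 (S1), 14.87 (S2) and 13.86 (S3), and 13.89 (C1), 13.87 (C2) and 14.21 (C3). The strain means, 13.99 ± 0.19 (SD, n = 3) in the congenic strain and 13.84 ± 1.04 (SD, n = 3) in S, differed by 0.15, with -0.37 without S1 and 0.67 without S2. Pvalb, the calcium buffer parvalbumin of fast fibers and of some neurons, read 4.21 (S1), 5.98 (S2) and 5.43 (S3) and 5.54 (C1), 5.03 (C2) and 4.53 (C3), of which only C1 was well above background. Its strains overlapped with a difference of -0.17, which was 0.21 without S2 and 0.08 without C3.

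Scn4b encodes a beta subunit that modulates voltage-gated sodium channels in muscle, heart and neurons, and its probe was printed as 10 spots, which were averaged. It read 7.07 (S1), 7.55 (S2) and 7.78 (S3), and 5.09 (C1), 4.74 (C2) and 4.98 (C3), of which only C1 was well above background. The means were 7.47 ± 0.36 (SD, n = 3) in S and 4.94 ± 0.18 (SD, n = 3) in the congenic strain, a measured difference of -2.53 in which 2 of the 3 congenic signals are near background. The difference lay between -2.73 and -2.37 when a rat was left out and was -0.99 with normexp. Of 12 other sodium channel subunits, 9 had a tested probe, of which 1 was called higher and 0 lower in the congenic strain, with 3.79% and 2.63% called among all 12397 tested genes. The one called was Scn2a, a pore-forming subunit of neurons, by 1.66 ± 0.64 (SE, limma, adjusted p = 0.371), with overlapping strains. Its probe was well above background only in C1, C3 and S2, so the difference is partly of signals near background. The call of Scn2a was kept without C2 (1.96) and without S2 (2.32, limma, adjusted p = 0.024). It was lost when C1 (1.78), C3 (1.24), S1 (1.38) or S3 (1.28) was left out. The median difference of the 9 was 0.38, opposite in sign to Scn4b, and 8 of the 9 were above 0. The exception, Scn10a, went the way of Scn4b without being called, by -1.22 ± 0.53 (SE, limma), with overlapping strains. It was well above background on the 3 S arrays and on no congenic array. Scn4a, the pore-forming channel of skeletal muscle, read 5.15, 2.18 and 3.66 in C1, C2 and C3 and 4.18, 5.11 and 5.04 in S1, S2 and S3, with overlap.

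Myh2, Tnnc2, Tnni2, Ckm and Pvalb, the 5 genes whose strains overlapped, shared one order among the S rats. On all 6 of their probes S2 was highest and S1 lowest, an order seen at 31.1% of all tested probes. The mean signal of 11 smooth muscle markers followed the same order, at 12.37 in S1, 13.21 in S3 and 14.60 in S2, against 14.27 to 14.49 in the congenic rats, and so did that of 10 enteric neuron markers, at 7.99, 8.59 and 9.98 against 9.55 ± 0.51 (SD, n = 3). The 6 lymphoid markers with a tested probe ran in the reverse direction, with 12.73 in S1, 12.52 in S3 and 7.45 in S2, against 7.56 to 7.74 in the congenic rats. All 11 smooth muscle and 6 lymphoid markers were well above background on every array. Mybpc1, Myh1, Scn4b and Myom2 did not divide the S rats in this way, since S2 stood with S1 and S3 on the far side of the congenic rats for each of them. For Tnnt3, S2 was the S rat nearest to the congenic rats. The 5 adipocyte markers had a mean signal of 6.92 to 7.32 in the congenic rats and 6.07 to 6.40 in S, and the 9 markers of colon epithelium 13.89 to 14.37 and 13.20 to 13.49, both without overlap as for Myom2. The part of these lists in the differences was not tested.

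**Figure D3:**
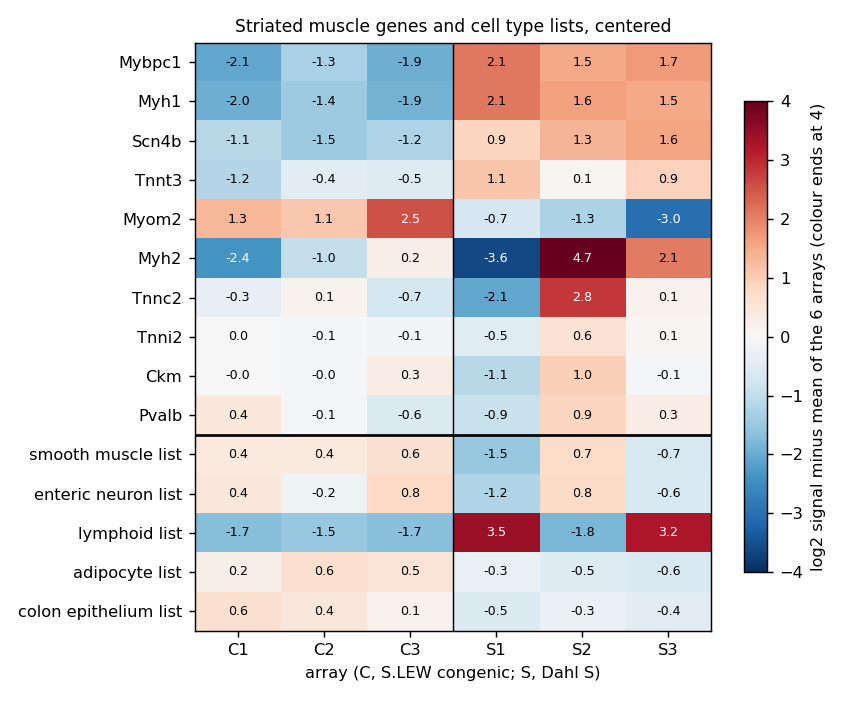
Log2 signal of the 10 genes (tested probe) and mean log2 signal of 5 lists of cell type markers on each array, minus the mean of the 6 arrays in that row, with red above and blue below it. The upper 5 rows divide the congenic rats (C1 to C3) from the S rats (S1 to S3), while Myh2, Tnnc2, Tnni2, Ckm and Pvalb have S2 above S3 and S1, as the smooth muscle list does.

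Of the 68 marker genes with a tested probe, 4 were called higher (5.88%) and 4 lower (5.88%) by limma, against 3.79% and 2.63% of all tested genes. Among the muscle and nerve lists, 1 of 11 smooth muscle genes was called higher (Smtn, a cytoskeletal protein, by 1.12 ± 0.46, SE, limma, adjusted p = 0.384, with overlap), and 0 of 10 enteric neuron genes, 0 of 5 enteric glia genes and 0 of 3 genes of the interstitial cells of Cajal were called or had an unadjusted p under 0.05. The lymphoid list had 4 of 6 lower, the 4 with an unadjusted p under 0.05, among them Lck and Cd3g of T cells at -3.43 and -2.31. Vil1, the villin of brush borders, was the 1 of 9 epithelial genes called higher (1.02), Adipoq, the hormone adiponectin, the 1 of 5 adipocyte genes (1.91), and Rgs5 the 1 of 8 pericyte and fibroblast genes (2.16). An unadjusted p under 0.05 was reached by 8 of the 9 epithelial genes and 3 of the 5 adipocyte genes, all of them higher in the congenic strain. None of the 5 endothelial or 6 stratified squamous genes was called or had an unadjusted p under 0.05. With all 6 arrays, no marker gene passed an adjusted p of 0.05 in limma, the lowest being 0.206. The counts over the 68 genes were 6 higher and 0 lower with the slide as a block, 21 and 8 without S2, 7 and 0 without C3, 4 and 0 without S3, 3 and 1 without S1, 4 and 1 without C2, and 2 and 1 without C1.

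Another 97 genes of striated muscle outside the 10 were listed, of which 79 had a probe and 57 a tested one. By limma, 5 were called higher in congenic rats (8.77%) and 3 lower (5.26%), against 3.79% and 2.63% of all tested genes. With all 6 arrays none passed an adjusted p of 0.05 (lowest 0.193, with 14 at an unadjusted p under 0.05). Of the 3 lower, Mybph and Cox8b were well above background on the 3 S arrays and on no congenic array. They thus passed the filter through the S rats alone, and nothing is read from their part in the count. Among probes well above background on all 6 arrays, the counts were 6 higher and 0 lower. The median difference of the 57 genes was 0.13. Without S2 the counts were 14 higher and 6 lower, without C3 or S3 they were 2 and 3, without S1 4 and 5, and with the slide as a block 2 (Smpx and Hrc) and 0. Without S2 the limma adjusted p was under 0.05 for Smpx (0.0028), Cav3 (0.0076), Myom1 (0.012) and Hrc (0.040). The same was so for Mybph (0.0047) and Cox8b (0.049), but not for Smyd1 (0.074) or Myh8 (0.152).

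The list of sarcomere and assembly genes common to all striated fibers gave 3 of 10 higher and 1 lower. Smpx, a small protein of the costamere, read 7.24, 7.18 and 7.73 in C1, C2 and C3 and 4.66, 5.47 and 4.52 in S1, S2 and S3. It was higher by 2.50 ± 0.31 (SE, limma, adjusted p = 0.193) with no overlap, and its call was kept when any rat was left out. Smyd1, a methyltransferase needed for myosin folding, was called higher by 1.19 ± 0.43 (SE, limma, adjusted p = 0.356), and lost the call without C1 (1.23), C3 (0.99) or S3 (0.72). Myom1 was the third of these, and Myh8 the one lower, by -3.78 ± 1.34 (SE, limma, adjusted p = 0.351). The strains overlapped for Myh8, and its call was lost without C1 (-3.58), C2 (-3.03), S2 (-2.59) or S3 (-3.81).

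In the fast fiber list 0 of 7 were higher and 1 lower. That gene was Mybph, a myosin binding protein related to Mybpc1, which read 7.34 (S1), 5.13 (S2) and 6.82 (S3) and was near background on the congenic arrays, none of which read it well above (4.56, 4.06 and 3.95 in C1, C2 and C3). This puts it at least 2.56-fold lower there. Mybph passed the filter through the S arrays alone, so its call (limma, adjusted p = 0.273) is no separate support for that difference. The call was lost when the slide was a block (-1.87). Of the 7 genes, 2 had an unadjusted p under 0.05, Mybph and Myoz1. Myoz1 was higher in every congenic rat, by 0.66 ± 0.21 (SE, limma, adjusted p = 0.3345), and was well above background on every array. The median difference of the 7 was -0.36, and 2 of them were above 0. The slow fiber and cardiac list had 0 of 8 called, with 3 at an unadjusted p under 0.05. One of the 3 was slow troponin T (Tnnt1), whose probe was lower in every congenic rat, by -0.84 ± 0.18 (SE, limma, adjusted p = 0.239), while the congenic rats did not read a dimmer probe of the gene well above background. The others were Myl4, lower by -0.54, and Myh7b, higher by 0.89, both without overlap and well above background on every array. The median difference of the 8 genes was 0.007. Cardiac actin (Actc1) differed by 0.69 ± 0.53 (SE, limma, adjusted p = 0.547).

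The list of excitation and calcium release had 2 of 20 higher and 0 lower. Hrc, a calcium-binding protein of the sarcoplasmic reticulum, was higher by 1.87 ± 0.39 (SE, limma, adjusted p = 0.227), from 7.97, 8.16 and 8.71 in C1, C2 and C3 and 7.08, 6.42 and 5.73 in S1, S2 and S3. The S rats fell in the order S1, S2, S3 as they did for Myom2, and the call was kept when any rat was left out. Cav3, the muscle caveolin, was higher by 1.95 ± 0.68 (SE, limma, adjusted p = 0.350), with S2 at 7.85 above C1 at 7.66, and kept the call only without C1 (2.22) or S2 (2.74), losing it without C2 (1.85), C3 (1.77), S1 (1.51) or S3 (1.59) and with the slide as a block (1.40). In muscle energy supply 0 of 9 were higher and 1 lower, namely Cox8b, a muscle form of a cytochrome c oxidase subunit, at least 2.57-fold below S in the congenic rats (limma, adjusted p = 0.277), none of which read it well above background, and which lost its call with the slide as a block (-2.16). Of the myogenic regulators 0 of 3 tested were called, with 0 at an unadjusted p under 0.05, and Pax3 differed by 0.23 ± 0.44 (SE). Of the 97 genes 11 had a probe but were not well above background on any array, among them Myh4, Myf6, Pax7 and Mybpc3.

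**Figure D4:**
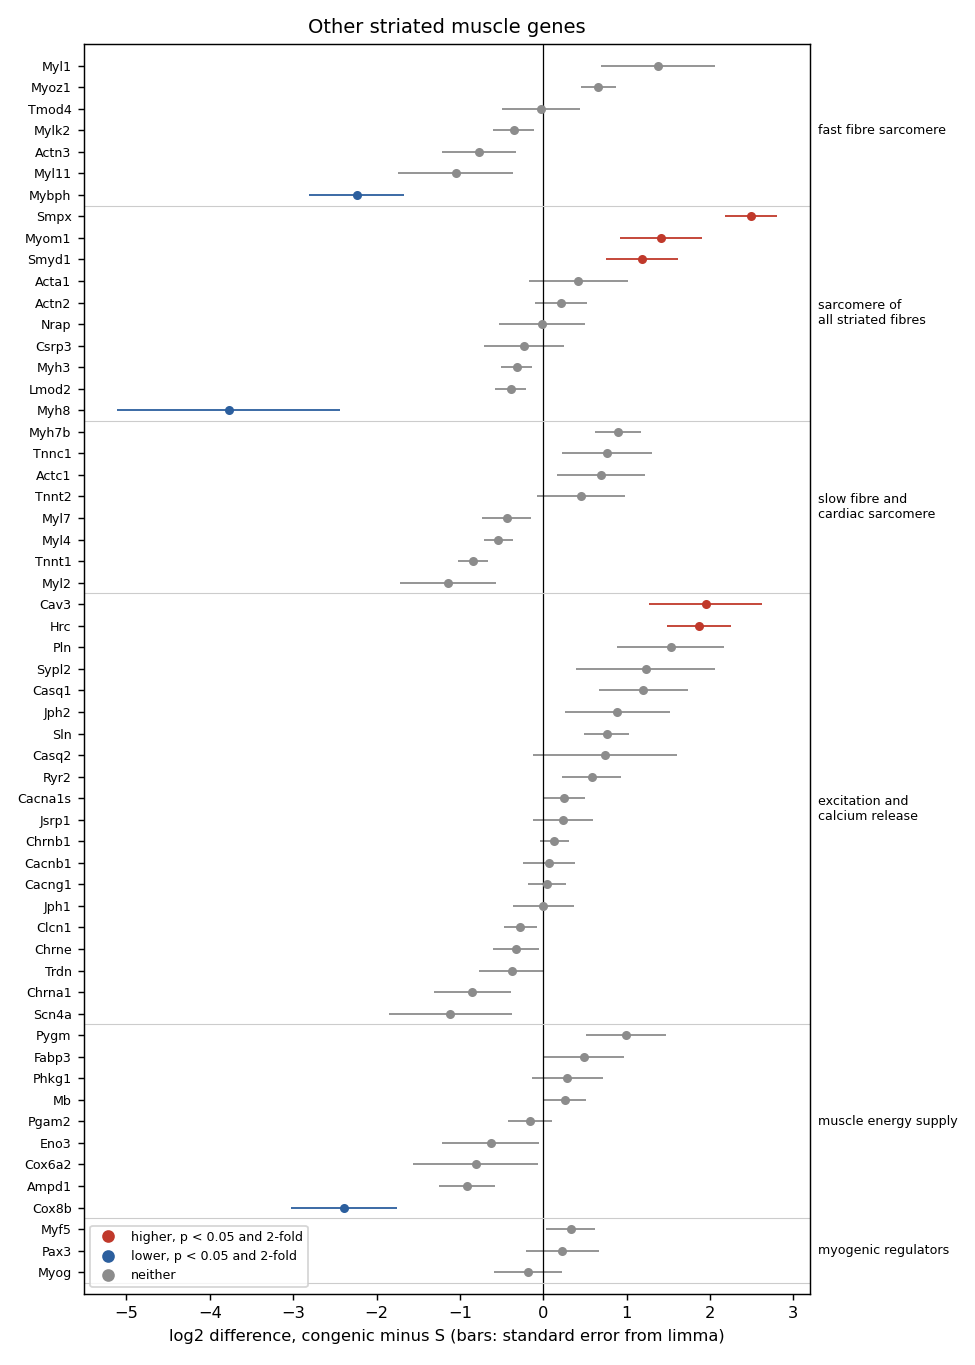
Log2 difference, S.LEW congenic minus S (horizontal axis), of the 57 other striated muscle genes with a tested probe (1 row each, brightest probe), grouped by list, with the limma standard error as a bar. The 5 genes called higher (red) and 3 called lower (blue) (unadjusted p under 0.05, 2-fold) stand on both sides of 0.

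As a description of likeness over the 6 arrays, Mybpc1 and Myh1 had a Pearson r of 0.998 with each other, where the 3 congenic signals of both genes are near background. The genes most like Mybpc1 were Tmem150c (r = 0.999), Myh1 and Rras2 (0.986), and those most like Myh1 were Mybpc1, Tmem150c (0.995) and Tnnt1 (0.984). Tmem150c encodes a membrane protein and Rras2 a small GTPase. Both were well above background on all 6 arrays and differed less between the strains than Mybpc1 did, by -1.33 and -0.94. The genes most like Myom2 were Slc38a4, an amino acid transporter (0.996), Pcsk2, a prohormone convertase (0.996), and Gsta3, a glutathione transferase (0.995), with differences of 1.90, 0.84 and 1.32. Among the tested probes of other named genes, a correlation of at least 0.95 was reached by 32 for Mybpc1, 28 for Myh1 and 132 for Myom2. The points are 6 rats of 2 strains, and the strains did not overlap at any of these genes.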

How the data were processed

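The authors hybridized colon RNA of 3 S.LEW congenic and 3 S rats to Agilent rat arrays and read them with Feature Extraction 11.0.1.1 (submitters' processing notes). Each spot has a background-corrected intensity in the deposited scanner output, with no normalization between arrays. The authors also deposited log2 values, quantile-normalized in GeneSpring and kept where a probe was detected in at least 3 of 6 samples. These correlated at 0.9999 or more with the values used here, their column medians were 8.55 to 8.57, and no value of the 10 genes differed from them by more than 0.24. One probe of Myh2 was not in that table.

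From the scanner files, control and outlier-flagged spots were left out, log2 intensities of the spots of a probe were averaged, and arrays were quantile-normalized. No spot was saturated. The comparison of the strains used limma (version 3.58.1, in R 4.3.3) with lmFit and eBayes, no covariates and Benjamini-Hochberg adjustment, and the cut-offs of an unadjusted p under 0.05 and 2-fold are those of the methods. Lists were counted on the probe of each gene with the highest mean signal. Where no array of one strain and every array of the other read a probe well above background, the fold is given as a bound. Beside it, a measured log2 difference is a description of signals near background. On each array of the dim strain the signal was raised, where lower, to that array's lowest well-measured signal. The mean of these was set against the mean of the other strain. An exact permutation test (two-sided, 3 against 3) has 0.10 as its smallest p. The fit was run on simulated data in which all arrays had the spread of the congenic arrays. The spread of the S rats was not simulated. Genes were named by accession through RefSeq (GRCr8), with 18005 of 30367 probes matched.

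The 10 genes, the lists of other striated muscle genes, sodium channel subunits and 10 sets of cell type markers, and the rule for naming genes were chosen with earlier results of these data known. The rule took the 10 genes, up to 3 genes of each list with the largest difference among those called or else the gene with the highest signal, some of which are not reported here, and the 3 genes most like Mybpc1, Myh1 and Myom2. Smyd1 and other genes named outside it were chosen after their values were seen. As alternatives served the 75th percentile as scale, the deposited log2 values, normexp on the median signal (offset 50, chosen after seeing the data), 2 other filters on dim probes, keeping flagged spots, replicate number or slide as a block, the methods' t-test, the mean of the probes of a gene, and leaving out each rat. Plots were drawn with matplotlib 3.10.9.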

Additional observations from a re-analysis of the deposited data

How the results depend on the processing

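The differences of Mybpc1, Myh1 and Myom2 kept their direction under each alternative that was run. They moved by more than the spread between rats only with normexp on the median signal, to -1.39, -0.69 and 1.33. The offset of 50 draws dim signals together by construction, but this setting also changed the signal and the background correction. The part of each was not tested. The planned normexp on the mean signal was not run, since the median signal was the one at hand. A filter on all 6 arrays leaves these 3 genes out. For all probes, 775 higher and 563 lower became 278 and 274 with normexp and 514 and 172 with the methods' t-test, the lower count was 342 with the filter on all 6 arrays and 225 with the slide as a block, and leaving out a rat gave 476 to 2399 higher and 186 to 1725 lower. The other striated muscle genes, 5 higher and 3 lower, were 2 higher with the slide as a block or the methods' t-test and 0 lower with normexp, the filter on all 6 arrays or the slide as a block, with 2 to 14 higher and 3 to 6 lower when a rat was left out. The sodium channel genes, 1 higher and 0 lower, were 0 higher after scaling to the 75th percentile, with normexp, the filter on all 6 arrays, the slide or replicate block or the methods' t-test, and 1 lower with the 75th percentile or the replicate block, with 0 to 4 and 0 to 1 when a rat was left out. The marker genes, 4 higher and 4 lower, were 2 higher and 0 lower with the methods' t-test, 0 lower with the slide as a block, and 2 to 21 and 0 to 8 when a rat was left out. The highest counts came without S2. The cause of these changes was not tested.

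The authors housed an S rat and a congenic rat in each cage, and the labels do not say whether rats of the same number were cage mates. Between their deviations from the strain means, rats of the same number had correlations of -0.02, -0.13 and -0.06. With the replicate block 791 probes were higher and 743 lower, 5 and 4 among the other striated muscle genes. Signal over background limits Mybpc1 and Myh1, whose congenic levels are bounds, and one probe of Myh2, for which no bound is given. It also limits Scn4b (C2 and C3) and Myom2 (S3).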
